A study of Homo sapiens with 4 samples.

Results

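SOX, FOX, ETS, GATA and TEAD proteins are sequence-specific transcription factors, and their mRNA levels were followed here in A549 cells after 3 h of glucocorticoid. Genes were taken by symbol: 90 of the 34607 genes in the files matched SOX, FOX, ETS, ETV, ELF, ELK, GATA or TEAD followed by the family's letter or number. Of these, 8 genes (FOXA1, FOXA2, FOXO1, FOXO3, FOXO4, GATA6, ETV4 and ETV5) were left out by name, and 38 had under 40 reads over the 4 libraries. The remaining 44 genes are described: 6 SOX, 19 FOX, 12 ETS, 3 GATA and 4 TEAD genes. The limit of 40 reads used the total of reads only, and not the difference between treatments. The families and the names left out were chosen with earlier results of these data known.

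A549 is an established human lung adenocarcinoma line of epithelial cells. The dex group had 2 libraries from cells given 100 nM dexamethasone, a synthetic ligand of the glucocorticoid receptor, for 3 h. The etoh group had 2 libraries from cells given the 0.02% ethanol vehicle for the same time. Dex libraries totalled 9828448 and 11138944 aligned reads, against totals of 9764159 and 11887526 for the etoh pair. Nothing in the labels states that replicates were grown apart, and p-values therefore rest on a spread that may be technical.

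The glucocorticoid receptor binds DNA and works beside other factors bound at the same enhancers, which makes the supply of such factors of interest in a hormone response. SOX proteins bend DNA through a high-mobility-group box, FOX proteins bind through a winged-helix domain, ETS proteins read a GGAA core, and GATA proteins bind through zinc fingers. TEAD proteins bind DNA but depend on the coactivators YAP1 and WWTR1 (TAZ), which the Hippo kinases hold in check. In lung, SOX9 marks distal progenitors, FOXP1, FOXP2 and FOXP4 act in the developing epithelium, and ELF3 is an ETS factor of epithelia.

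The treatment and the cell type were checked first. The glucocorticoid targets FKBP5, PER1 and TSC22D3 all rose, with log2 fold changes of 3.38, 3.87 and 4.46. Over all 14777 tested genes, 1684 had an adjusted p below 0.05 by edgeR (a quasi-likelihood fit, adjusted after Benjamini and Hochberg), which is 11.4%, with 6.98% higher and 4.42% lower in dex. KRT8 stood at 3805 and 3167 CPM (aligned reads scaled to a library of 1e6) in dex and at 1660 and 1795 CPM in etoh. Of 7 epithelial and A549 markers, 3 (KRT8, KRT18 and KRT7) were called higher in dex. The others, EPCAM, CDH1, AKR1B10 and AKR1C1, did not pass, with log2 fold changes of -0.22, 0.15, -0.16 and -0.18. Of the markers of other cell types, CD3E and VWF were at 0 in every library, PTPRC had reads in dex replicate 1 alone, and COL3A1, DCN and CDH5 stayed below 1 CPM. The collagen gene COL1A1 had 16.7 and 21.3 CPM in dex against 10.4 and 15.4 CPM in etoh and was called higher, and CD68 was between 3.28 and 4.07 CPM in all libraries. The part of such markers in the results below was not tested.

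The DNA around a start of 3 called ETS genes and of SOX13 is shown, since ETS proteins read GGAA and these genes were among those called without each library in turn. RefSeq windows on GRCh38.p14 run from 250 bases before to 50 bases after an annotated start, and 33 of the 44 genes had 60 windows between them. The windows are chr13:41061337-41061636 (- strand) for ELF1, chr1:204072865-204073164 (+ strand) for SOX13, chr1:202010337-202010636 (+ strand) for ELF3 and chr7:13990653-13990952 (- strand) for ETV1. Letters are given 5′ to 3′ on the gene's strand, and capitals mark GGAA, the ETS core, and AGAACA, the hexamer repeated in the glucocorticoid receptor's palindrome, with the reverse complements TTCC and TGTTCT.

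ELF1: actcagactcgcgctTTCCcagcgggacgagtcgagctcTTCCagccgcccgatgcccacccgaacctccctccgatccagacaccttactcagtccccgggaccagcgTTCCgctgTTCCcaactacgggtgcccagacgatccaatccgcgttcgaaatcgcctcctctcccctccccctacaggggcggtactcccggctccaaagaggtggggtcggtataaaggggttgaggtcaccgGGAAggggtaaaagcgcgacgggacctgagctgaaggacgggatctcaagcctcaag
SOX13: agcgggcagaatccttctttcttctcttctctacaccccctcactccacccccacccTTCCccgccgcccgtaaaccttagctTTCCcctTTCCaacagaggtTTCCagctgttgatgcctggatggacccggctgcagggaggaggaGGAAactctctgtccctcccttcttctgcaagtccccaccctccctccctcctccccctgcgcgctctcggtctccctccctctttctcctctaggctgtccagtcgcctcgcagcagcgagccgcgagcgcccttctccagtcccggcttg
ELF3: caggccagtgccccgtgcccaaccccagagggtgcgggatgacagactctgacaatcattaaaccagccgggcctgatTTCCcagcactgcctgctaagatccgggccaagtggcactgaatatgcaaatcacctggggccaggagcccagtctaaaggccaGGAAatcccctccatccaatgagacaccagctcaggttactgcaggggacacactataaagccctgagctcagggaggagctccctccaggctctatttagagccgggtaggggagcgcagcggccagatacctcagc
ETV1: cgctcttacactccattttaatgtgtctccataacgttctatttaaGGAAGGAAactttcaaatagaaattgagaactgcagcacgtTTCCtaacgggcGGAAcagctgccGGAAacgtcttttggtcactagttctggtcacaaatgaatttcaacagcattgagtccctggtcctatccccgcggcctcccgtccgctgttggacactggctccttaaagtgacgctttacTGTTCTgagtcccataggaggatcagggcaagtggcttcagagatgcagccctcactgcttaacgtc

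The ELF1, SOX13 and ETV1 windows each held 5 GGAA matches and the ELF3 window held 2. The ETV1 window was picked because it held the AGAACA hexamer, as TGTTCT, which 2 of the 6 ETV1 windows did. Those 2 windows overlap and share 1 hexamer, which is counted in both here and in the totals over windows. None of the other windows shown held it, while 1 of the 3 ELF1 windows did, near a start inside the gene. On either strand, GGAA was found in 55 of the 60 windows (91.7%) and in 95.5% of all 35116 windows, and AGAACA in 7 of 60 (11.7%) and in 14.8% of all. Among windows of genes called higher, 1 of 6 held AGAACA, and among windows of genes called lower, 3 of 15 did. The full palindrome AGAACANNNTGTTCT was found in none of the 60 windows and in 1 of all 35116. The FOX motif TGTTTAC was in 2 windows, the SOX motif AACAAT in 7, the GATA motif AGATAAG in 3 and the TEAD motif GGAATG, which contains GGAA, in 5. Over all windows these 4 motifs were found in 3.42%, 10.1%, 2.68% and 14.0%. The longer ETS core CCGGAAG, which contains GGAA, was in 2 windows (10.3% of all windows held it), and the AP-1 motif TGANTCA in 3 (7.71% of all). A match is a description of the letters in these windows and says nothing of binding. The member windows had a median GC content of 65.7%, against 58.7% over all windows.

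Of the 44 genes, 12 (27.3%) passed the test over all genes, against 11.4% of all tested genes. FOXD2, SOX13, ELF1, FOXP4 and FOXN2 rose, and SOX7, FOXQ1, ETV1, ELF3, SOX9, ETV6 and FOXP1 fell. A change of 2-fold or more was seen in 3 of those that rose and 3 of those that fell, against 2.48% and 0.974% of all tested genes. The called genes came from the SOX (3 of 6), FOX (5 of 19) and ETS (4 of 12) families, and 0 of 3 GATA and 0 of 4 TEAD genes passed, while GATA6, one of the genes left out by name, was called lower. The median log2 fold change over the 44 genes was -0.10, against -0.0026 over all tested genes. In 28 of the 44 genes the dex and etoh libraries did not overlap, 11 with dex above and 17 with dex below etoh. This held for 53.3% of all tested genes, 24.5% with dex above and 28.8% with dex below etoh. RNA was taken from whole cultures, so a lower level in fewer cells and less RNA per cell cannot be told apart. A log2 fold change is dex over etoh throughout, and SE is its standard error.

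**Figure D1:**
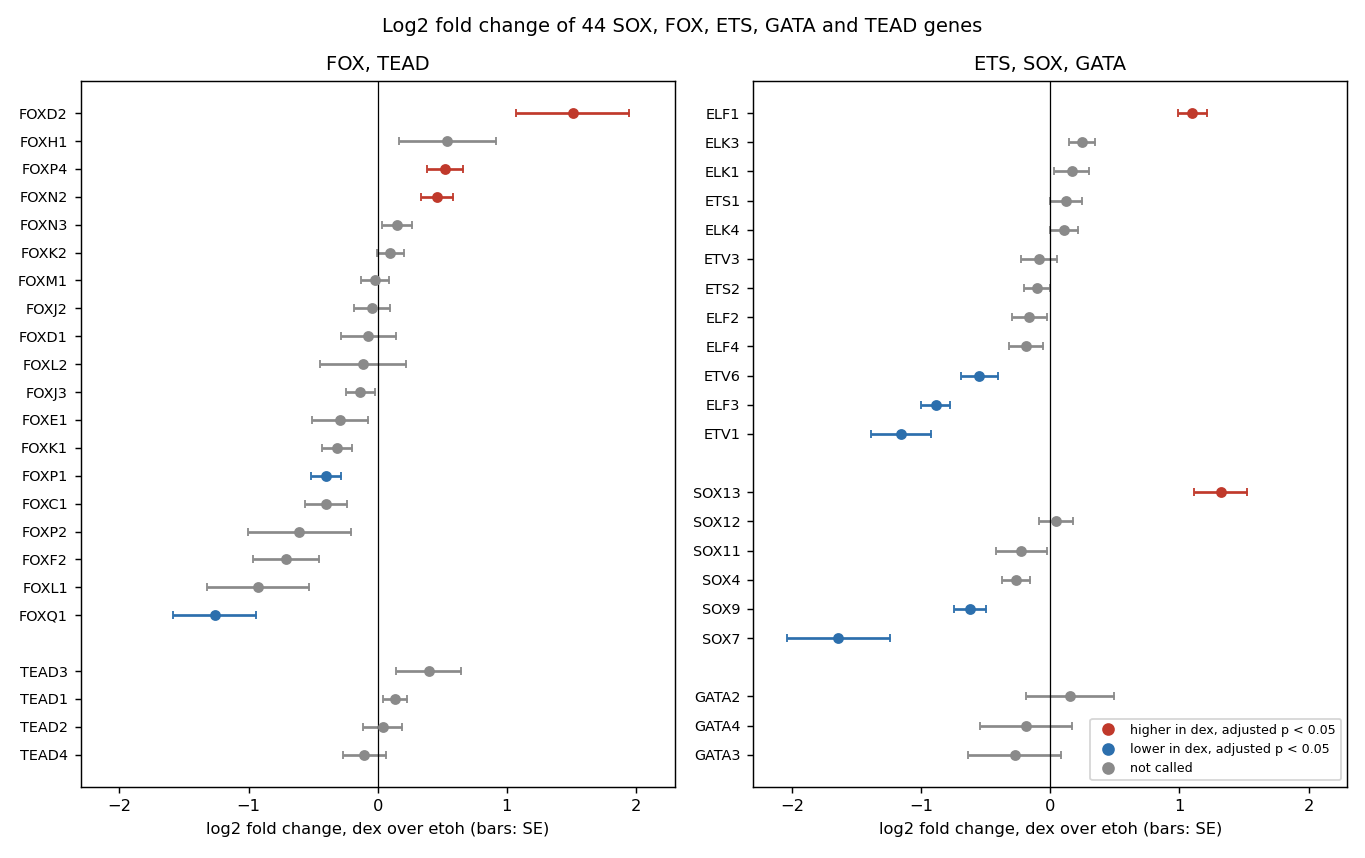
Log2 fold change (dex over etoh, horizontal axis) with its SE for each of the 44 genes, by family; red marks genes higher and blue genes lower in dex at an adjusted p below 0.05 by edgeR, and grey genes that were not called. The 12 called genes lie between -1.64 (SOX7) and 1.51 (FOXD2), and all GATA and TEAD genes are grey.

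**Figure D2:**
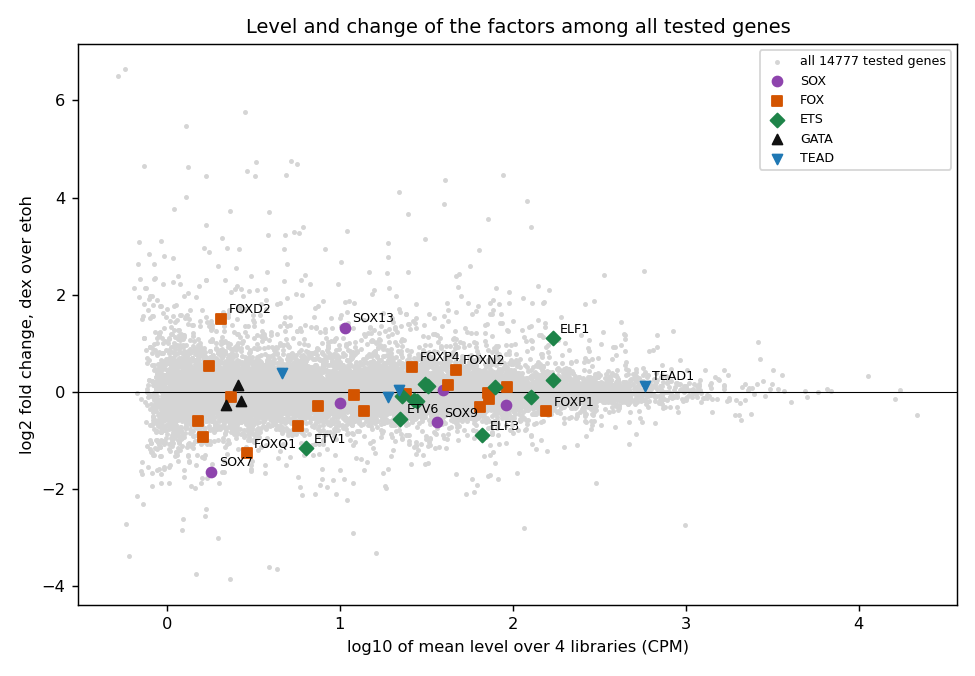
Mean level over the 4 libraries (log10 CPM, horizontal axis) against log2 fold change (vertical axis) for the 44 genes by family, over all 14777 tested genes in grey. ELF1 joins a high level with a change above 1, TEAD1 is the most abundant of the genes, and the GATA genes sit at the low end.

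The ETS family held the change with the smallest p-value. ELF1, an ETS factor of lymphoid cells and epithelia, had 245 and 216 CPM in dex against 96.8 and 121 CPM in etoh. The lowest dex library lay far above the highest etoh library. Its mean was 231 ± 20.6 CPM in dex and 109 ± 17.0 CPM in etoh (SD, n = 2 each), a log2 fold change of 1.10 (SE 0.11, adjusted p = 2.2e-07 by edgeR). ELF1 lies on chromosome 13 from 40932028 to 41061440 in GRCh38, and it shares 167 exon bases with WBP4 on the opposite strand, which had 363 reads in all against 7195 for ELF1. The files list 3 ELF1 transcripts, and ELF1-003 and ELF1-201 took nearly all reads. ELF1-003 had 1230 and 1207 reads in dex against 474 and 705 in etoh, and ELF1-201 had 1158 and 1185 in dex against 454 and 716 in etoh. ELF1-002 had 21 and 13 reads in dex against 17 and 15 in etoh. The rise in reads was thus on ELF1-003 and ELF1-201. The ELF1 window printed above holds the annotated start of ELF1-002 (41061440), whereas ELF1-003 starts at 41019314, outside that window. No start was found for ELF1-201, so the printed letters are not shown to be the promoter of the transcripts that rose. How reads common to several transcripts were placed is not given in the files, and single transcripts were not tested.

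The other called ETS genes were lower in dex. ELF3, an epithelial factor that inflammatory cytokines induce, had 47.9 and 44.5 CPM in dex against 80.8 and 92.0 CPM in etoh. The groups lay far apart relative to the spread within them. ELF3 thus fell, with a log2 fold change of -0.89 (SE 0.11, adjusted p = 5.5e-06 by edgeR). ELF3 lies on chromosome 1 from 202007945 to 202017188. All 4 listed ELF3 transcripts had fewer reads in dex: ELF3-001 had 436 reads in dex against 905 in etoh, and ELF3-004 had 98 against 205. ELF3 overlaps ELF3-AS1 on the opposite strand and AL691482.3 on the same strand, and 16.6% of its 50-base windows also occur in other counted genes. Reads of the shared bases cannot be told apart here. ELF3-AS1 and AL691482.3 had 55 and 73 reads, against 2850 for ELF3.

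ETV1, a growth-factor-responsive member of the PEA3 group, had 4.27 and 3.59 CPM in dex against 7.99 and 9.67 CPM in etoh. Both dex libraries lay below both etoh libraries. This gave a log2 fold change of -1.16 (SE 0.23, adjusted p = 0.0013 by edgeR). ETV1 lies on chromosome 7 from 13891228 to 13991425. Its 275 reads fell on 16 transcripts, none with more than 14.9% of them. The transcript with the most reads, ETV1-202, had 8 and 10 reads in dex against 10 and 13 in etoh, and with it alone the log2 fold change was -0.27 (adjusted p = 0.81 by edgeR). ETV1-005, chosen after its values were seen, had 5 reads in dex against 26 in etoh.

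ETV6, an ETS repressor known from leukaemia translocations, had 17.1 and 18.8 CPM in dex against 25.6 and 27.5 CPM in etoh. The libraries of each group lay close together. The log2 fold change was -0.55 (SE 0.14, adjusted p = 0.012 by edgeR), and ETV6 did not pass when dex replicate 1 (-0.49) or etoh replicate 2 (-0.50) was left out, nor by DESeq2. The other 8 ETS genes did not pass and had log2 fold changes between -0.19 and 0.24. ELK3, a serum response factor partner that can repress, was the most abundant of them per length at 48.3 RPKM (CPM per kilobase of transcript) in dex and 41.3 RPKM in etoh. Its libraries did not overlap, with 184 and 185 CPM in dex against 149 and 167 CPM in etoh (log2 fold change 0.24, 95% interval 0.04 to 0.45, adjusted p = 0.13 by edgeR). ETS2, an effector of RAS signalling, stood at 119 and 124 CPM in dex against 127 and 136 CPM in etoh, and ETS1 had a log2 fold change of 0.12 with an interval of -0.13 to 0.38. ELK1 and ELK4, the other serum response factor partners, were at 0.17 and 0.10.

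**Figure D3:**
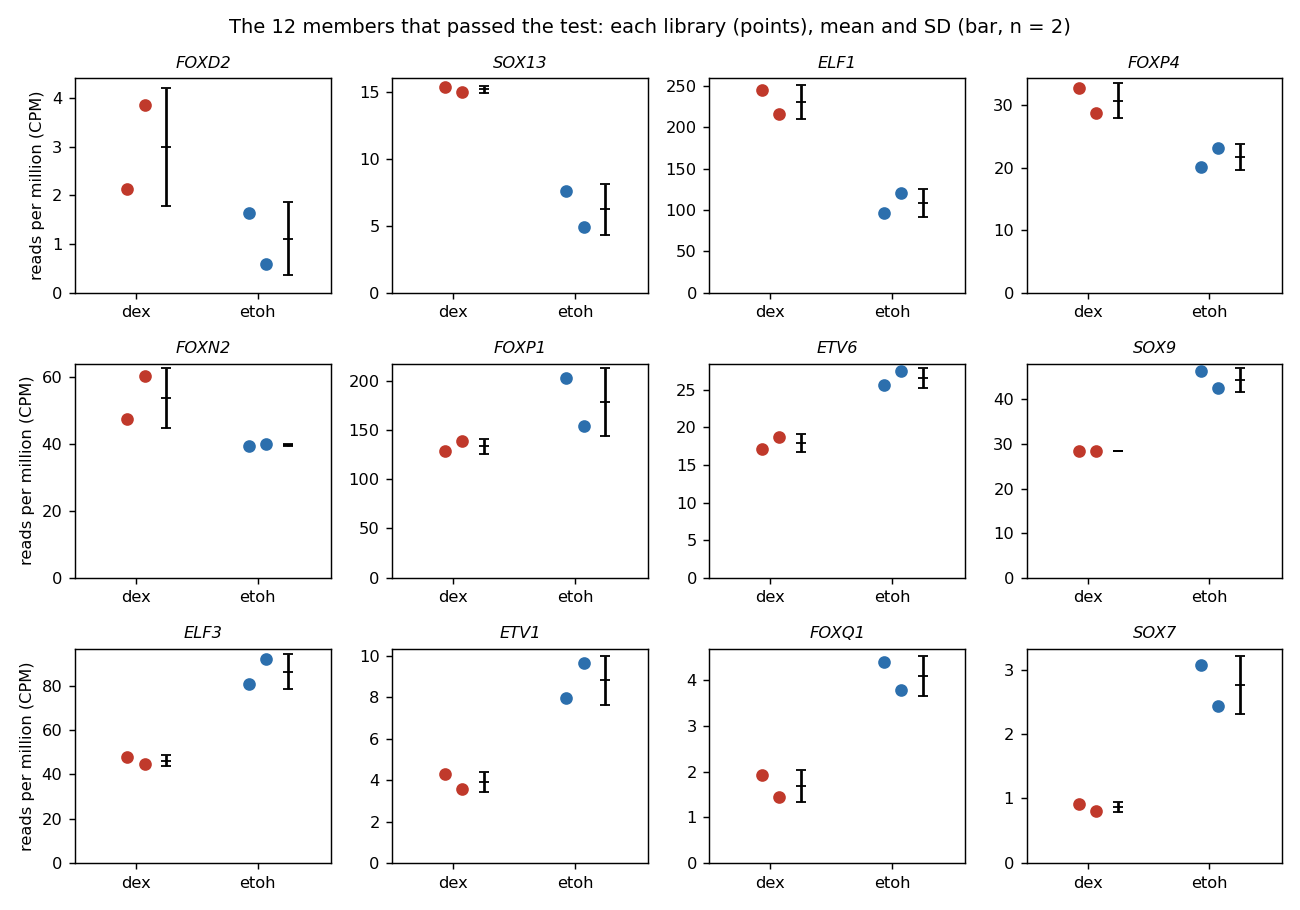
CPM in each library for the 12 genes that passed the test (points, dex left and etoh right), with the mean and SD of each group beside them (n = 2) and each vertical axis starting at 0. In all 12 genes, which the test picked on these same libraries, the dex and etoh libraries do not overlap, as in 53.3% of all tested genes. FOXD2 has the widest spread within groups relative to its level.

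In the SOX family, SOX13 rose and SOX9 and SOX7 fell. SOX13, a member of the SoxD group, had 15.4 and 15.0 CPM in dex against 7.58 and 4.88 CPM in etoh. The dex libraries were nearly equal, and the etoh libraries differed more between themselves. SOX13 had a log2 fold change of 1.32 (SE 0.21, adjusted p = 8.4e-05 by edgeR). SOX13 lies on chromosome 1 from 204073115 to 204127743. Most reads fell on SOX13-002, with 293 in dex against 125 in etoh, and 50-base windows of its transcripts occurred in no other gene.

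SOX9, a factor of cartilage and of distal lung progenitors, had 28.5 and 28.4 CPM in dex against 46.3 and 42.5 CPM in etoh. The difference was many times the spread within either group. SOX9 had a log2 fold change of -0.62 (SE 0.12, adjusted p = 0.0011 by edgeR). SOX9 lies on chromosome 17 from 72121020 to 72126420, has 1 listed transcript and shares no 50-base window with another gene.

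SOX7, a SoxF factor best known from endothelium, was present at a low level. It had 9 and 9 reads in dex, or 0.916 and 0.808 CPM, against 30 and 29 reads in etoh, or 3.07 and 2.44 CPM. The groups did not overlap, and the log2 fold change was -1.64 (SE 0.40, adjusted p = 0.0077 by edgeR). The symbol covers 2 gene identifiers, of which the second adds 17 of the 77 reads. Of the 50-base windows of SOX7, 12.3% also occur in other genes, mainly PINX1. SOX7 shares 1268 exon bases with PINX1 on the same strand, and reads of those bases cannot be told apart here. Whether the 17 reads came from SOX7 was not tested. With the transcript of most reads alone the log2 fold change was -2.10, and the call was lost without etoh replicate 1 (-1.46) and with DESeq2.

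The SoxC genes SOX4, SOX11 and SOX12, which act in progenitor cells, did not pass. SOX4, the most abundant SOX gene per length at 17.8 RPKM in dex and 21.6 RPKM in etoh, had 83.7 and 81.3 CPM in dex against 91.5 and 109 CPM in etoh. Its libraries did not overlap, and the log2 fold change was -0.27 (95% interval -0.49 to -0.04, adjusted p = 0.13 by edgeR). SOX11 was at -0.22 with an interval of -0.64 to 0.19 and SOX12 at 0.05 with an interval of -0.22 to 0.32.

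Among the 19 forkhead genes, FOXD2, FOXP4 and FOXN2 rose and FOXQ1 and FOXP1 fell. The FOXP genes, which work as repressors and act in lung epithelium, did not move together. FOXP1 had 128 and 139 CPM in dex against 203 and 154 CPM in etoh. The highest dex library lay near the lower etoh library, and the etoh libraries differed widely. FOXP1 had a log2 fold change of -0.40 (SE 0.12, adjusted p = 0.030 by edgeR); it was -0.17 without etoh replicate 1 and -0.35 without dex replicate 1, and neither passed, nor did FOXP1 by DESeq2. The gene spans 70952817 to 71583993 on chromosome 3. FOXP1-001 held 71.5% of the reads, with 875 and 1067 in dex against 1473 and 1316 in etoh. FOXP1-004, with 20.2% of the reads, had 242 and 331 in dex against 377 and 386 in etoh, so the main transcripts both had fewer reads in dex.

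FOXP4 had 32.8 and 28.7 CPM in dex against 20.2 and 23.1 CPM in etoh, with no overlap. The log2 fold change was 0.52 (SE 0.14, adjusted p = 0.015 by edgeR), and each of its 5 main transcripts had more reads in dex, from 104 against 82 for FOXP4-003 to 152 against 108 for FOXP4-001. The call was lost when dex replicate 1 (0.42) or etoh replicate 1 (0.44) was left out, by DESeq2 and with the single transcript of most reads. FOXP2 had 25 reads in dex against 40 in etoh and did not pass (-0.61, 95% interval -1.43 to 0.22).

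**Figure D4:**
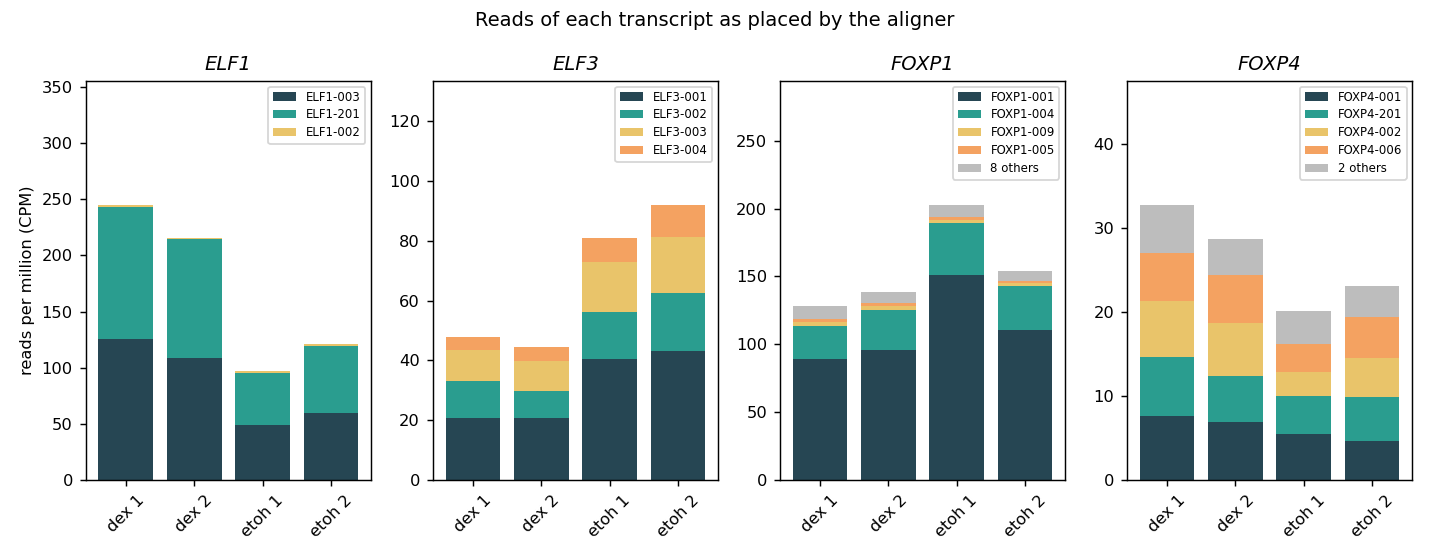
CPM placed on each listed transcript of ELF1, ELF3, FOXP1 and FOXP4, stacked, in each library (dex 1, dex 2, etoh 1, etoh 2). ELF1-003 and ELF1-201 are taller in both dex libraries, all ELF3 transcripts are shorter in dex, and FOXP1-001 makes up most of the FOXP1 column in every library.

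FOXN2, a forkhead gene of the checkpoint suppressor group, had 47.3 and 60.1 CPM in dex against 39.3 and 39.8 CPM in etoh. The etoh libraries were nearly equal and the dex libraries were not. The log2 fold change was 0.46 (SE 0.12, adjusted p = 0.015 by edgeR), and without dex replicate 2 it was 0.28 and did not pass, nor did FOXN2 pass by DESeq2. FOXN3, of the same group, was at 0.15 with an interval of -0.09 to 0.39.

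FOXQ1, a forkhead factor of epithelia linked to epithelial-mesenchymal transition, had 19 and 16 reads in dex against 43 and 45 in etoh. These are 1.93 and 1.44 CPM in dex and 4.40 and 3.79 CPM in etoh, with no overlap. The log2 fold change was -1.26 (SE 0.32, adjusted p = 0.011 by edgeR), and FOXQ1 did not pass when dex replicate 2 (-1.05) or etoh replicate 1 (-1.14) was left out, nor by DESeq2. FOXD2 had the largest increase of the 44 genes on few reads, with 21 and 43 in dex against 16 and 7 in etoh. The libraries of each group lay far apart, with 2.14 and 3.86 CPM in dex and 1.64 and 0.589 CPM in etoh. The log2 fold change was 1.51 (SE 0.44, adjusted p = 0.026 by edgeR), but FOXD2 did not pass when dex replicate 2 (1.01) or etoh replicate 2 (0.89) was left out, nor by DESeq2. Leaving out etoh replicate 1 gave 2.37, which passed.

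The other 14 forkhead genes did not pass. FOXM1, which drives mitotic genes, had 73.4 and 68.7 CPM in dex against 75.2 and 70.9 CPM in etoh, with overlapping groups and a log2 fold change of -0.02 (95% interval -0.25 to 0.20). FOXM1 stood at 22.7 RPKM in dex and 23.4 RPKM in etoh, and 18.7% of its 50-base windows also occur in ITFG2. The autophagy and metabolism regulators FOXK1 and FOXK2 were at -0.31 and 0.10, and 20.4% of the FOXK2 windows also occur in other counted genes. FOXK1 had 61.5 and 52.9 CPM in dex against 77.1 and 66.9 CPM in etoh, and it passed without dex replicate 1 (-0.43) and without etoh replicate 2 (-0.42). Leaving out dex replicate 2 gave -0.20 and leaving out etoh replicate 1 gave -0.19 for FOXK1, and neither passed.

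Several forkhead genes of low level had fewer reads in dex without passing. FOXF2, a mesenchymal factor that also appears on the list of YAP-TEAD targets, had 35 and 56 reads in dex against 82 and 72 in etoh (-0.71 on the log2 scale, SE 0.25, edgeR adjusted p = 0.077). It passed when dex replicate 2 (-0.98) or etoh replicate 2 (-0.95) was left out, and with no count filter. Without dex replicate 1 it was -0.495 and without etoh replicate 1 it was -0.452, and neither passed. FOXC1 had 11.2 and 12.2 CPM in dex against 15.9 and 15.5 CPM in etoh (-0.40, adjusted p = 0.13 by edgeR), and FOXL1 had 12 and 11 reads in dex against 22 and 24 in etoh (-0.93, adjusted p = 0.15 by edgeR). In these 3 genes both dex libraries lay below both etoh libraries, which held for 28.8% of all tested genes. FOXE1, FOXL2, FOXJ2, FOXJ3 and FOXD1 had log2 fold changes between -0.29 and -0.04. FOXH1, a partner of SMAD proteins, was at 0.54 with an interval of -0.24 to 1.32, and 30.2% of its 50-base windows also occur in other counted genes, mainly KIFC2.

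All 3 GATA genes had few reads, from 93 to 115 over the 4 libraries. GATA4, a factor of endoderm and heart, had 30 and 22 reads in dex against 18 and 45 in etoh, and GATA2, a blood-cell factor, had 34 and 22 in dex against 25 and 28 in etoh. The groups overlapped in both, and in GATA3, which had 24 and 17 reads in dex against 26 and 26 in etoh. The log2 fold changes were -0.19, 0.15 and -0.28 in the order GATA4, GATA2 and GATA3. Their 95% intervals ran from -0.93 to 0.56, from -0.56 to 0.86 and from -1.02 to 0.47, and differences within those bounds are not excluded.

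The TEAD genes included the most abundant of the 44. TEAD1 had 603 and 603 CPM in dex against 565 and 549.2 CPM in etoh, or 77.8 RPKM in dex and 71.9 RPKM in etoh. Its groups did not overlap, but the log2 fold change of 0.13 (SE 0.09, adjusted p = 0.44 by edgeR) had a 95% interval of -0.06 to 0.33. TEAD4 stood at 12.3 RPKM in dex and 13.4 RPKM in etoh, and TEAD2 at 10.6 RPKM in dex and 10.4 RPKM in etoh, and both had overlapping libraries. TEAD3 was the lowest of them, with 5.60 and 4.85 CPM in dex against 3.69 and 4.29 CPM in etoh (log2 fold change 0.40, interval -0.13 to 0.92). Per length the order TEAD1, TEAD4, TEAD2 and TEAD3 was the same in both groups, and the libraries of TEAD4 and TEAD2 overlapped in dex but not in etoh.

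Genes that work with TEAD proteins were taken from lists chosen with earlier results of these data known. Of 14 tested TEAD coactivators and Hippo genes, 2 rose and 0 fell (14.3% called), which is near the 11.4% called among all tested genes. Their median log2 fold change was -0.05, against -0.0026 over all tested genes. The coactivator WWTR1 had 562 and 624 CPM in dex against 459 and 411 CPM in etoh (log2 fold change 0.46, SE 0.10, edgeR adjusted p = 0.0027), and the kinase LATS2 was at 0.52 (SE 0.13, adjusted p = 0.0093 by edgeR). YAP1, the other coactivator, had 138 and 137 CPM in dex against 151 and 144 CPM in etoh and did not pass (-0.08). Without etoh replicate 1, 1 of the 14 was called. Of 22 YAP-TEAD target genes, which include LATS2 and FOXF2, 6 rose and 5 fell, with a median of 0.09. This is 50% called, against 11.4% of all tested genes (6.98% higher and 4.42% lower). CTGF and GADD45A were the called genes with the smallest p-values among those that rose (2.15 and 1.64), and TGFB2 and IGFBP3 among those that fell (-1.71 and -0.91). ANKRD1, which also rose (1.38), had a smaller p-value by edgeR than IGFBP3. The list thus held changes in both directions, and 3 genes instead of 5 were lower without etoh replicate 1, with DESeq2 and with the replicate number as a block.

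Of 17 tested partners of the other families, 2 rose and 1 fell (17.6% called, against 11.4% of all tested genes), with a median of -0.07. TLE3, a corepressor recruited by forkhead and other factors, had 57.7 and 45.96 CPM in dex against 18.1 and 18.5 CPM in etoh (1.52 on the log2 scale, SE 0.14, edgeR adjusted p = 3.9e-08), while TLE1, TLE2 and TLE4 did not pass (-0.17, 0.29 and -0.22). MKL1, a coactivator of the serum response factor with which ELK proteins bind, was at 0.63 (SE 0.12) and SRF itself at -0.20 (SE 0.18). RUNX1, which binds beside ETS1, had 27.4 and 28.5 CPM in dex against 42.1 and 39.9 CPM in etoh (-0.53, SE 0.12, adjusted p = 0.0050 by edgeR). None of 4 tested ETS-domain genes with other names passed edgeR's test or DESeq2's, and 0 had an unadjusted p below 0.05 in edgeR's test: ERF was at 0.02, GABPA at -0.24, EHF at -0.16 and SPDEF at 0.32. Of the 8 genes left out by name, 2 rose and 4 fell (75% called, against 11.4% of all tested genes). FOXO3 had 98.0 and 108 CPM in dex against 39.8 and 39.1 CPM in etoh, and FOXO1 had a log2 fold change of 1.20, whereas FOXA1 was at -0.91 and ETV5 at -0.89. GATA6, named after its values were seen, had 2.65 and 2.06 CPM in dex against 5.02 and 5.13 CPM in etoh and was called lower (-1.09, SE 0.28, edgeR adjusted p = 0.012).

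The 38 matching genes under 40 reads were not tested, since none passed the filter on low counts. Of these, 11 had no reads, 14 had 1 to 9 reads and 13 had 10 or more. The limit fell in a gap: FOXP2, with 65 reads, was the lowest gene inside it, and FOXD3, with 32 reads, the highest outside. Some of the genes outside it, chosen after their values were seen, had uneven reads. SOX2, a pluripotency and airway factor, had 3 and 3 reads in dex against 9 and 16 in etoh, or 0.251 times as many after scaling to depth (exact 95% limits 0.0842 and 0.627). SOX21 had 0 and 1 reads in dex against 12 and 8 in etoh, or 0.0523 times as many (limits 0.00126 and 0.327). Such limits cover counting error only.

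**Figure D5:**
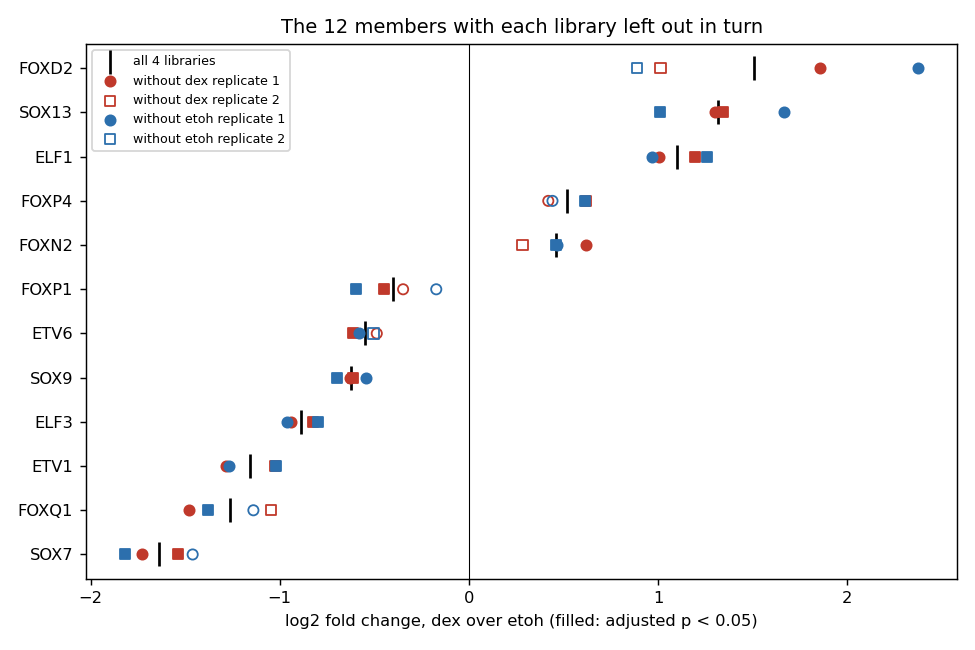
Log2 fold change (horizontal axis) of the 12 called genes with all 4 libraries (black bars) and with each library left out in turn (red without a dex library, blue without an etoh library; circles replicate 1, squares replicate 2), filled where the adjusted p stayed below 0.05. The sign is the same throughout, and ELF1, SOX13, ELF3, SOX9 and ETV1 are filled in every case.

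Leaving out each library in turn, 5 of the 12 genes (ELF1, ELF3, ETV1, SOX13 and SOX9) passed every time, as the plot of fits without each library shows, and the same genes were the 5 that DESeq2 called.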

How the data were processed

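RNA was measured in 4 libraries of A549 cells. Raw counts of aligned reads per transcript were deposited, 1 file per library. CASAVA, Bowtie, SAMtools and DESeq2 were used, per the submitters' processing notes, with no version, role or order. Aligner settings, genome build and strand: not given in the sources used here. Each deposited file also holds a length per transcript (another number, in bases) and 17.2% to 18.7% unaligned reads, which were kept out of library sizes.

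Counts were summed over all transcripts of a gene, and identifiers that share a member's symbol were joined. Levels were scaled to each library's aligned total (CPM), and per kilobase of read-weighted transcript length (RPKM). The test was edgeR's (version 4.0.16, R 4.3.3): filterByExpr with a minimum count of 10, TMM factors, a quasi-likelihood fit on treatment alone with a prior count of 0.125, two-sided, and Benjamini-Hochberg adjustment over 14777 genes. The SE is the absolute log2 fold change divided by the square root of F. The test was first tried on simulated data.

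By rule, the text names all called members, in each family the 2 most abundant per kilobase, those beside the read limit, the called genes with the 4 smallest p-values on each list, and 3 genes that check the treatment. Other members, markers and list genes named with values were added after their values were seen. The members and lists were chosen with earlier results of these data known. Positions, overlaps and shared 50-base windows came from GENCODE on GRCh38. No library repeated another, the chi-square per degree of freedom being 5.37 between the dex libraries and 6.97 between the etoh libraries. A count of 0 allows up to 3 reads, which is 0.252 to 0.307 CPM. Alternatives are given in the closing section.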

Additional observations from a re-analysis of the deposited data

How the results depend on the processing

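No called result changed sign under any alternative run. The number of the 44 genes called was 12, and it was 5 with DESeq2 1.42.0 and 6 at an adjusted p of 0.01. It was 10 with the single transcript of most reads in place of the sum. With a library left out, some of the 12 were lost each time, and FOXF2, FOXK1 or both were gained in some of these fits. Of all tested genes, 1684 were called, 1040 with DESeq2, 996 at an adjusted p of 0.01 and between 1111 (without etoh replicate 1) and 1966 (without dex replicate 2) without each library. The 12 genes were all called with coding transcripts only, DESeq2 size factors, upper-quartile factors, library totals, no count filter, 1 CPM in 2 libraries, limma-voom and a robust dispersion fit. ELF1, ELF3, SOX13 and SOX9 passed under every alternative run. Of the 32 genes not called, 28 passed under none. Of the TEAD and Hippo partners, 2 were called, and between 1 and 2 without each library. For these changes the cause was not tested.

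The labels number the replicates 1 and 2 in both groups without saying that a number is shared. The deviations of same-numbered libraries from their group means correlated at -0.113 over genes. With 2 libraries in each group, this single value cannot tell whether the numbers pair the samples. With the replicate number as a block, 12 of the 44 genes were called, the same genes, and 1558 of all genes. A crossed pairing, added after the data were seen, called 16 of the 44 and 2711 of all genes.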
